A study of Mus musculus with 6 samples.

Results

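The last stage of cholesterol synthesis, from the joining of isoprenoid units into squalene to cholesterol itself, was followed through 9 enzyme genes, Fdft1, Sqle, Lss, Cyp51, Tm7sf2, Msmo1, Nsdhl, Sc5d and Dhcr7. They were taken by gene name from a table of 34745 genes, and each name matched 1 row. RNA had been sequenced from 6 tumours under the skin of C57BL/6J mice. The 3 HCD tumours came from mice given a high cholesterol diet, and the 3 ND tumours from mice given a normal diet. By the labels, all mice had received B16F10 cells, a mouse melanoma line, in the right flank. The labels state no other treatment, no age and no sex, and the marker levels given below do not match the melanoma label. The line as labelled is a single cultured line grown in hosts of the strain it derives from, and a tumour sample also holds cells of the host.

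Cells make cholesterol from acetyl-CoA in the endoplasmic reticulum. Squalene is the first intermediate committed to sterols, and its oxidised form is folded by Lss into lanosterol, which the later enzymes strip of methyl groups and reshape. When sterols in that membrane run low, the transcription factor SREBP2 is released and switches these genes on together, and sterol-rich membranes hold it back. NF-Y, which binds the letters CCAAT, and Sp1, which binds the GC box, are known partners of SREBP at such promoters.

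The promoters are shown because the 9 genes are known to be switched together. RefSeq windows of GRCm38.p6 (the build also called mm10), from 250 bases before a start to 50 after it, were found for 7 genes, with 1 window each for 6 of them and 3 for Dhcr7. Below are the windows of Cyp51 (chr5:4104648-4104947, minus strand), Tm7sf2 (chr19:6067801-6068100, minus strand), Msmo1 (chr8:64733529-64733828, minus strand) and Sc5d (chr9:42264251-42264550, minus strand), read 5′ to 3′. Capitals mark CCAAT or its reverse complement ATTGG.
Cyp51: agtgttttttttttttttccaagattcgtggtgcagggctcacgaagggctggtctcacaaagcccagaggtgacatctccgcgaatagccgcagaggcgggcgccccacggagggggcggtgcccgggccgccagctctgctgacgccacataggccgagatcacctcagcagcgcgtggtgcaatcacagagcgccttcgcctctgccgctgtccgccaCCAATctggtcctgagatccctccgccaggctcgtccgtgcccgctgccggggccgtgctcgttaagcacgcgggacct
Tm7sf2: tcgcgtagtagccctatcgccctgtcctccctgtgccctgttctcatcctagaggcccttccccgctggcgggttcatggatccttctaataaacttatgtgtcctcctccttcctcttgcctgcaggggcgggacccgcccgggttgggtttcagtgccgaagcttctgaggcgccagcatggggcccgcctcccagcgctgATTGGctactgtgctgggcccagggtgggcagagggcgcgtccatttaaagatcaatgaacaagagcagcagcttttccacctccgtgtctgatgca
Msmo1: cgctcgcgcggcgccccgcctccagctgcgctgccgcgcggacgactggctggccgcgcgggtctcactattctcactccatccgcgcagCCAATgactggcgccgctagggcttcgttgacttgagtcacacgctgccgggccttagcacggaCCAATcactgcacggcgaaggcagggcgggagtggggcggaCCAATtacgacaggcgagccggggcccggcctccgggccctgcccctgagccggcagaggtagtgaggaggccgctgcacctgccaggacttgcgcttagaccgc
Sc5d: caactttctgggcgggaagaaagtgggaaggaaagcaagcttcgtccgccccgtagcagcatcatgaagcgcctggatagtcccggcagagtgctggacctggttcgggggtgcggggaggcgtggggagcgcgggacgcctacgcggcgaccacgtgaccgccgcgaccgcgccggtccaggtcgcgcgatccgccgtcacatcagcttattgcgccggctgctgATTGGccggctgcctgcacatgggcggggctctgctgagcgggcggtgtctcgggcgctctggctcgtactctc

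Each of the 7 genes had a CCAAT box in at least 1 window, on either strand. It was present in 7 of the 9 windows, against 37.4% of all 32851 windows in the table. In Cyp51 it began at position -29 from the start, in Tm7sf2 at -47 and in Sc5d at -24, while Msmo1 had 3, at -160, -96 and -55. The GC box, GGGCGG or its reverse complement, was in 8 of the 9 windows and in 35.7% of all windows. The letters TCACNCCAC, a core of the sterol response element, were in 0 of the 9 windows and in 1.24% of all windows. The letters TCACCTCA, part of a sterol element described in mammalian Cyp51 promoters, were in the Cyp51 window at -88 and in 1.17% of all windows. The E-box CACGTG was in a window of Dhcr7 and in that of Sc5d, and in 7.15% of all windows. These counts take both strands, the motifs do not contain one another, and the searches were chosen with the windows in view. A match is a run of letters and was not set against any binding measurement.

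The libraries held 20351637 to 26228074 counts. Of the 8 pigment cell markers looked up, Tyr, Dct, Mlana and Oca2 had 0 counts in all 6 libraries, and the total over 6 libraries was 800 counts for Mitf, 89 for Pmel, 15 for Sox10 and 1 for Tyrp1. The 9 hepatocyte markers summed to 4001 to 5897 CPM (CPM is a count scaled to library size) in HCD tumours and 4556 to 5680 CPM in ND tumours. Alb (mean 3614 CPM) and Afp (634 CPM) carried most of that sum, while Serpina1a (0.128 CPM), Fgg (0.216 CPM) and Ahsg (0.536 CPM) were near 0. Pigment cell markers at or near 0 beside high Alb and Afp do not match the melanoma label, and the identity of the cells was not tested. The samples are therefore called tumours labelled as B16F10. HCD 1 and ND 2 stood apart in 6 skeletal muscle markers, with 1674 and 1618 CPM in sum, where the other libraries ran from 9.97 to 187 CPM. Of 15539 genes tested, edgeR called 0 at an adjusted p under 0.05 (0%), and 282 higher and 541 lower had an unadjusted p under 0.05. The DESeq2 Wald test called 1 higher and 6 lower, none of them an enzyme of this set.

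All 9 genes were expressed in every tumour, with 144 to 8063 counts in a library, so that counting error alone was 1.11% to 8.33% of a value. All 9 had a fold change below 0 in HCD against ND tumours, with a median log2 fold change of -0.23, while 47.0% of all tested genes had a fold change below 0 and their median was 0.01. None of the 9 passed over all genes, and the adjusted p ran from 0.839 to 0.861. For the mean of the 9 genes on the centred log2 CPM scale, HCD tumours averaged -0.14 ± 0.27 and ND tumours 0.14 ± 0.24 (SD, n = 3 each). The 3 HCD values ran from -0.45 to 0.03 and the 3 ND values from -0.14 to 0.29, so the diets overlapped. In bulk tissue fewer cells of a type and less RNA per cell cannot be told apart.

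**Figure D1:**
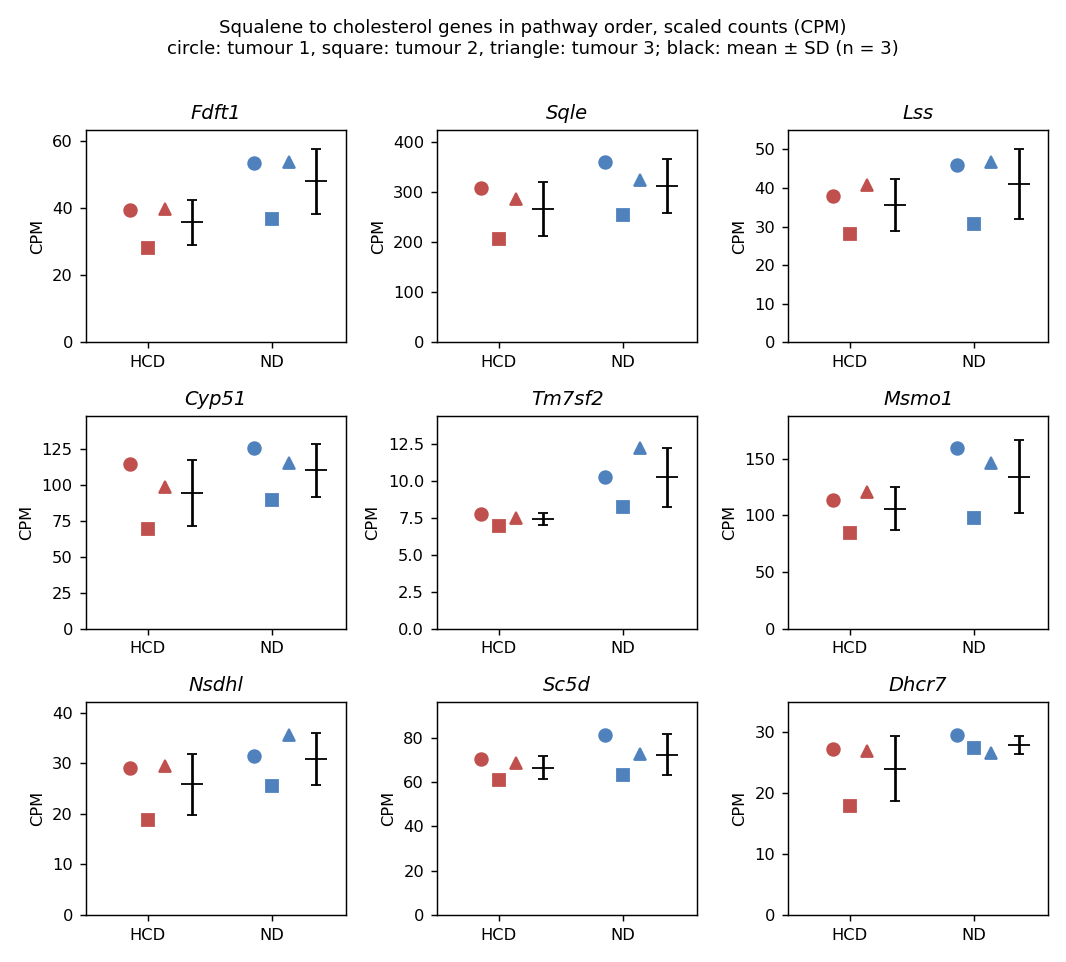
Scaled counts (CPM, linear axis from 0) of the 9 genes in each tumour, HCD left and ND right, with symbols for tumour 1, 2 and 3 and the mean ± SD of 3 tumours in black. HCD 2 (red square) is the lowest of 6 in every panel, and the diets overlap in all panels but that of Tm7sf2.

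Fdft1 (ENSMUSG00000021273, chromosome 14, 63145150 to 63179578, minus strand) encodes squalene synthase, the branch point from isoprenoids to sterols. It had 39.6, 28.1 and 39.8 CPM in HCD 1, 2 and 3, against 53.5, 36.8 and 53.7 CPM in ND 1, 2 and 3. HCD 2 and ND 2 were the lowest of their diets, and ND 2 lay among the HCD values. Between diets this came to -0.42 ± 0.19 SE on the log2 scale, and the 95% interval ran from -0.88 to 0.04. The exons of Fdft1 share 774 bases, 18.3% of its exon sequence, with Ctsb on the opposite strand. Ctsb, a lysosomal protease gene, was far more abundant, with 623 CPM in HCD and 509.95 CPM in ND tumours, and whether strand was used in counting was not given in the sources used here.

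Sqle (ENSMUSG00000022351, chromosome 15, 59315077 to 59331192, plus strand) encodes squalene epoxidase, a rate-limiting enzyme of the sterol branch. Its levels were 308, 206 and 288 CPM in HCD tumours and 360.4, 254 and 325 CPM in ND tumours, in the order of their numbers. The diets overlapped, since ND 2 was below HCD 1 and HCD 3. Its log2 fold change came to -0.23 ± 0.18 SE, smaller than the spread within a diet.

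Lss (ENSMUSG00000033105, chromosome 10, 76531588 to 76557138, plus strand) encodes the cyclase that makes lanosterol, the first sterol ring. It had 38.0, 28.1 and 40.9 CPM in HCD 1 to 3, and 45.9, 30.6 and 46.7 CPM in ND 1 to 3. ND 2 and HCD 2 lay close together at the bottom. HCD over ND gave a log2 fold change of -0.20 ± 0.20 SE, which is no more than its own error. An antisense gene on the opposite strand shares 381 bases of its exons.

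Cyp51 (ENSMUSG00000001467, chromosome 5, 4081145 to 4104746, minus strand), the demethylase that takes the first methyl group from lanosterol, had 115, 69.5 and 98.7 CPM in HCD tumours against 126, 89.8 and 115 CPM in ND tumours. HCD 1 was nearly level with ND 3, and the diets overlapped. HCD over ND came to -0.22 ± 0.20 SE on the log2 scale.

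Tm7sf2 (ENSMUSG00000024799, chromosome 19, 6062821 to 6068373, minus strand) encodes a reductase for the double bond that Cyp51 leaves, a step that the lamin B receptor also performs. Lbr, the gene of that receptor, averaged 186 CPM and had a log2 fold change of 0.04 ± 0.08 SE. Tm7sf2 had 7.77, 6.96 and 7.46 CPM in HCD 1 to 3 and 10.3, 8.22 and 12.2 CPM in ND 1 to 3. It was the 1 member of 9 in which all HCD tumours lay below all ND tumours, an order seen in 6.36% of tested genes. At -0.47 ± 0.18 SE its log2 fold change was the largest of the 9, with an unadjusted p of 0.0347 and an adjusted p of 0.839. An unadjusted p under 0.05 with a lower HCD level was found in 1 of the 9 genes and in 3.48% of all tested genes.

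The level of Tm7sf2 was also the least precise, since its counts of 144 to 251 per library carry a counting error of 6.31% to 8.33%. Its exons share 532 bases, 12.1% of its exon sequence, with Vps51 on the same strand. Vps51, a gene of vesicle tethering, had 40.1 CPM in HCD and 41.0 CPM in ND tumours, with a log2 fold change of -0.03. How reads in the shared exons were counted was not given in the sources used here.

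Msmo1 (ENSMUSG00000031604, chromosome 8, 64718139 to 64733792, minus strand) encodes the oxidase that starts removal of the remaining methyl groups. It had 113, 84.1 and 121 CPM in HCD tumours and 159, 97.5 and 146 CPM in ND tumours, in order of number. ND 1 and ND 3 were above every HCD tumour and ND 2 was above HCD 2 alone. The log2 fold change was -0.34 ± 0.21 SE.

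Nsdhl (ENSMUSG00000031349, chromosome X, 72918557 to 72958514, plus strand), the dehydrogenase that follows Msmo1, had 29.2, 18.8 and 29.5 CPM in HCD 1 to 3, against 31.5, 25.4 and 35.7 CPM in ND 1 to 3. Only HCD 2 was below all ND tumours. The log2 fold change was -0.26 ± 0.20 SE.

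Sc5d (ENSMUSG00000032018, chromosome 9, 42251595 to 42264256, minus strand) encodes the desaturase of the next to last step. Its levels of 70.4, 60.8 and 68.4 CPM in HCD tumours and 81.4, 63.0 and 72.6 CPM in ND tumours were the steadiest of the set. The highest library had 1.34 times the lowest, where the other 8 genes had 1.66 to 1.91 times. The log2 fold change was -0.12 ± 0.11 SE, the smallest of the 9, with an interval of -0.38 to 0.14.

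Dhcr7 (ENSMUSG00000058454, chromosome 7, 143823145 to 143848410, plus strand) encodes the reductase whose substrate is also the precursor of vitamin D. It had 27.1, 17.8 and 26.9 CPM in HCD 1 to 3, and 29.6, 27.4 and 26.6 CPM in ND 1 to 3. HCD 1 and HCD 3 lay inside the ND range, and HCD 2 alone was below it. The log2 fold change was -0.22 ± 0.17 SE, and it was -0.04 without HCD 2.

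**Figure D2:**
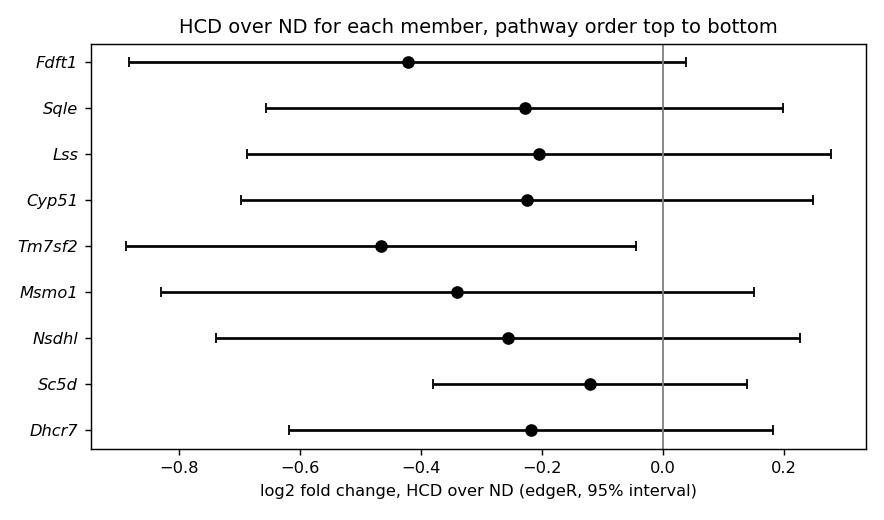
Log2 fold change of HCD over ND tumours (x axis, edgeR, 6 libraries) with its 95% interval for the 9 genes, in pathway order from top to bottom. All points lie left of 0, and every interval but that of Tm7sf2 (-0.89 to -0.04) crosses 0.

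The intervals set how large a difference these 6 libraries leave possible. For Sqle the estimate was 14.6% lower in HCD tumours, and the interval reached from a level 36.5% lower to one 14.8% higher. For Sc5d it reached from 23.2% lower to 10.1% higher, and for Fdft1 from 45.7% lower to 2.67% higher.

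The order of the tumours was nearly the same from gene to gene. HCD 2 was the lowest of the 6 libraries in 9 of 9 genes, where it was the lowest in 21.6% of all tested genes. ND 2 was second lowest in 7 of 9 and the lowest ND tumour in 8 of 9, Dhcr7 being the exception. ND 1 was the highest in 5 genes and ND 3 in 4. Against the mean of HCD 1 and HCD 3, HCD 2 differed by -0.64 on the log2 scale for Nsdhl, -0.61 for Cyp51 and -0.60 for Dhcr7, but by -0.19 for Sc5d and -0.13 for Tm7sf2. ND 2 differed from the mean of ND 1 and ND 3 by -0.64 for Msmo1 and -0.60 for Lss, and by -0.03 for Dhcr7.

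**Figure D3:**
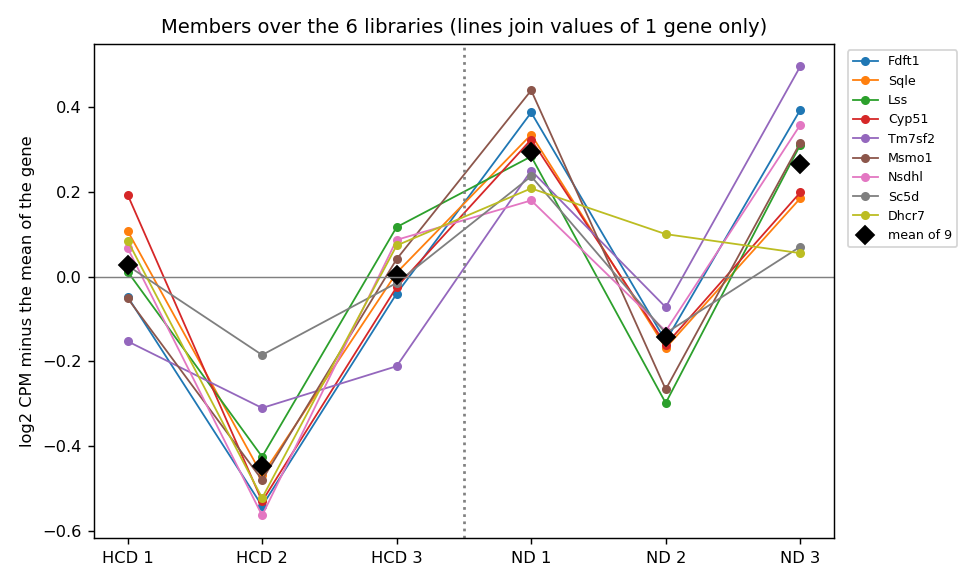
Log2 CPM of each gene minus its mean over 6 libraries (y axis) by library (x axis, HCD then ND), with the mean of the 9 genes as black diamonds; lines only join the values of 1 gene. The diamonds lie at -0.45 in HCD 2 and -0.14 in ND 2, and at 0.00 to 0.29 in the other 4 libraries.

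The ratio of highest to lowest library had a median of 1.75 over the 9 genes. Over the 9739 genes averaging 10 CPM or more, a set not matched in abundance that leaves out Tm7sf2 (mean 8.81 CPM), the median was 1.26. A ratio at least as large as that of Fdft1 (1.91) was found in 9.11% of these genes, as large as that of Sqle (1.75) in 11.4%, and as large as that of Sc5d in 35.0%. Summed over the 9 genes, the deposited FPKM (which divides a count by gene length and library total) were 122, 85.5 and 113 in HCD 1 to 3 and 139.6, 103 and 134 in ND 1 to 3.

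The size of the difference between the diets depended on single tumours, while its sign in the 9 genes did not. The median log2 fold change was -0.07 without HCD 2, -0.35 without HCD 1, -0.37 without ND 2 and -0.17 to -0.32 without 1 of the other 3 libraries. All 9 genes stayed below 0 in each of these 6 fits. The fits share libraries and the 9 genes rose and fell together, so their signs are not independent observations. Without HCD 2 the log2 fold changes ran from -0.42 for Tm7sf2 to -0.04 for Dhcr7. Without both HCD 2 and ND 2 the median was -0.20, and without HCD 1 and ND 2, the muscle-rich libraries, it was -0.47, again with all 9 below 0. No fit called any of the 9.

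Marker genes of other cell types also differed between these tumours. In HCD 2, 8 of 8 macrophage markers, 8 of 8 T cell markers and 6 of 6 endothelial markers were the highest of the 6 libraries. The share of all tested genes highest in HCD 2 was not counted, for these or for later lists. Of the tested hepatocyte markers, 5 of 7 were lowest in HCD 2, against 21.6% of all tested genes. Macrophage markers summed to 915, 1539 and 693 CPM in HCD 1 to 3 and to 452, 959.5 and 824 CPM in ND 1 to 3, with no marker at 0. T cell markers summed to 55.7 to 134 CPM in HCD and 18.8 to 82.2 CPM in ND tumours. Endothelial markers summed to 175, 330.3 and 160.0 CPM in HCD 1 to 3 and to 143 to 181 CPM in ND tumours, again with none at 0. ND 2 had the second highest macrophage sum and ND 1, highest in 5 of the 9 enzyme genes, had the lowest. The 2 orders were not opposite throughout. HCD 3 had a lower macrophage sum than ND 3 (693 against 824 CPM) and also a lower mean centred log2 CPM of the 9 enzymes (0.00 against 0.265).

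Neutrophil and hepatocyte markers each had a mean centred log2 CPM in an order partly like that of the enzymes. For neutrophil markers it was -0.31, -0.94 and 0.03 in HCD 1 to 3 and 0.81, -0.23 and 0.64 in ND 1 to 3. For the 7 tested hepatocyte markers it was 0.13, -0.56 and 0.23 in HCD 1 to 3 and 0.25, -0.115 and 0.06 in ND 1 to 3. For the 9 enzymes it was 0.03, -0.45 and 0.00 in HCD 1 to 3 and 0.29, -0.14 and 0.265 in ND 1 to 3. All of these means were lowest in HCD 2, and ND 2 was the lowest ND tumour in each. Of the tested hepatocyte markers, 4 of 7 had a fold change below 0, with a median of -0.10. An unadjusted edgeR p under 0.05 was found in 3 of these 7, against 282 higher and 541 lower of 15539 tested genes. Hnf4a (-0.38) and Apob (-0.35) were lower in HCD tumours and Ttr (0.68) was higher, and 0 of the 7 passed over all genes. The hepatocyte mean includes Ahsg, at 0.097 CPM in HCD 2. HCD 2 was the lowest library in 3 of 7 neutrophil markers. The neutrophil mean gives each gene equal weight, and Ly6g, with 71 counts over 6 libraries, had 0 in HCD 2. The 7 neutrophil markers summed to 90.5, 96.9 and 103 CPM in HCD 1 to 3 and to 197, 110 and 174 CPM in ND 1 to 3. That sum was lowest in HCD 1, and no marker was at 0 in all libraries. Of the 7, 6 had a fold change below 0 (47.0% of all tested genes), the median was -0.63, and 0 passed over all genes. An unadjusted p under 0.05 with a lower HCD level was found in 3 of 7, against 3.48% of all tested genes, and HCD tumours all lay below ND tumours in 2 of 7, against 6.36%. Fibroblast markers, highest in HCD 2 for 5 of 6, summed to 2473 to 3591 CPM in HCD and 2681 to 3931 CPM in ND tumours, and adipocyte markers to 25.7 to 66.0 CPM in HCD and 34.8 to 39.6 CPM in ND tumours. The part of cell makeup in the levels of the 9 genes was not tested.

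Levels were compared between genes per kilobase. In the deposited FPKM Sqle was highest, at 33.8 ± 6.06 (SD, n = 6), and its range of 24.4 to 41.2 lay above that of Sc5d, at 20.4 ± 1.97. Cyp51 (18.9), Fdft1 (14.6), Msmo1 (12.1) and Nsdhl (9.39 FPKM) followed, each with a range that overlapped that of its neighbour. A gap then separated Nsdhl from Dhcr7 (3.55), Lss (2.07) and Tm7sf2, the lowest at 1.23 ± 0.275 FPKM.

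This order rests in part on the gene lengths behind the FPKM values. The length implied by count and FPKM was 18461 bases for Lss, 9863 for Msmo1 and 7137 for Tm7sf2, the last of which exceeds the 5553 bases that the gene spans in GENCODE vM21. For 5 of the 9 genes, and for 72.4% of 24619 genes, the implied length was within 1 base of the summed length of all distinct annotated exons, so that exons overlapping between transcripts counted more than once. With the length of the merged exons, Msmo1 had 19.5 ± 4.40 FPKM and ranked 3, Sc5d 14.2 ± 1.37 and ranked 4, and Fdft1 9.89 ± 2.27 and ranked 6. With the longest transcript Msmo1 had 40.3 ± 9.10 FPKM, ranked 2 and overlapped the range of Sqle (64.8 ± 11.6). Sqle stayed first and Dhcr7, Lss and Tm7sf2 the last 3 under all 3 lengths. Fold changes between diets do not involve the length.

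**Figure D4:**
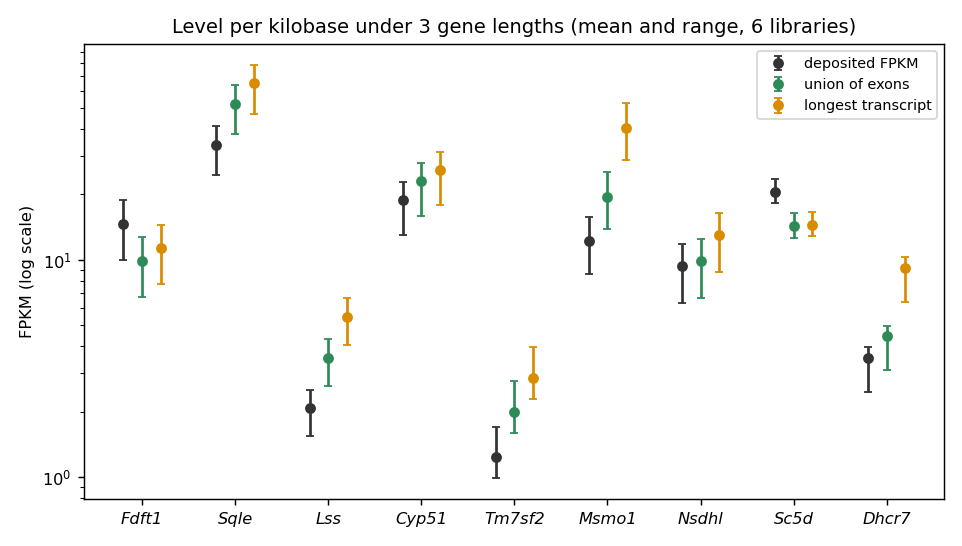
FPKM of the 9 genes (y axis, log scale) as deposited and with the length of merged exons or of the longest transcript, as mean and range over 6 libraries, in pathway order. Sqle is the highest and Tm7sf2 the lowest under each length, and Msmo1 has 12.1 FPKM as deposited, 19.5 with merged exons and 40.3 with the longest transcript.

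Genes upstream and beside the 9 were described with lists of the pathway. The mevalonate arm, which supplies the isoprenoids, had 8 of 8 genes below 0 with a median of -0.11, and HCD 2 was the lowest library in 7 of 8. In this arm the log2 fold change was -0.15 ± 0.19 SE for Hmgcs1, the HMG-CoA synthase, and -0.25 ± 0.19 SE for Idi1, an isomerase. Of 4 further sterol genes, 2 were below 0 (median -0.03), with Hsd17b7, the ketoreductase that follows Nsdhl, at -0.32 ± 0.23 SE.

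Regulators and targets of SREBP had 8 of 10 genes below 0 with a median of -0.17. Insig2, which encodes an anchor that holds the SREBP carrier in the endoplasmic reticulum, had -0.23 ± 0.09 SE (unadjusted p = 0.0443, adjusted p = 0.839). Isoprenoid branches that do not lead to sterols had 2 of 7 below 0 and a median of 0.02, with Nus1, a subunit of the dolichol-making enzyme, at 0.06 ± 0.06 SE and Fntb, a farnesyltransferase subunit, at -0.16 ± 0.18 SE. All HCD tumours lay below all ND tumours in 3 of the 10 SREBP genes, which were Srebf2, Insig2 and Mbtps1, against 6.36% of all tested genes, a count made after the values were seen. The gap was narrow, with 198 to 264 CPM in HCD and 267 to 316 CPM in ND tumours for Srebf2, the gene of SREBP2 itself. No gene of these 4 lists passed over all genes.

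The oxysterol receptors LXR, active when sterols accumulate, and their target genes lay on the other side. They had 5 of 6 fold changes above 0, with a median of 0.45, and HCD 2 was the highest library in 5 of 6. Lpcat3, a phospholipid-remodelling enzyme, had 205, 169 and 202 CPM in HCD 1 to 3 and 156, 172 and 153 CPM in ND 1 to 3, a log2 fold change of 0.26 ± 0.09 SE (unadjusted p = 0.0249, adjusted p = 0.839). For Lpcat3 HCD 2 was the lowest HCD tumour, unlike the other genes of that list. None of the 6 passed, and macrophages also express genes of this list, so the marker sums given above stand beside these values too.

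**Figure D5:**
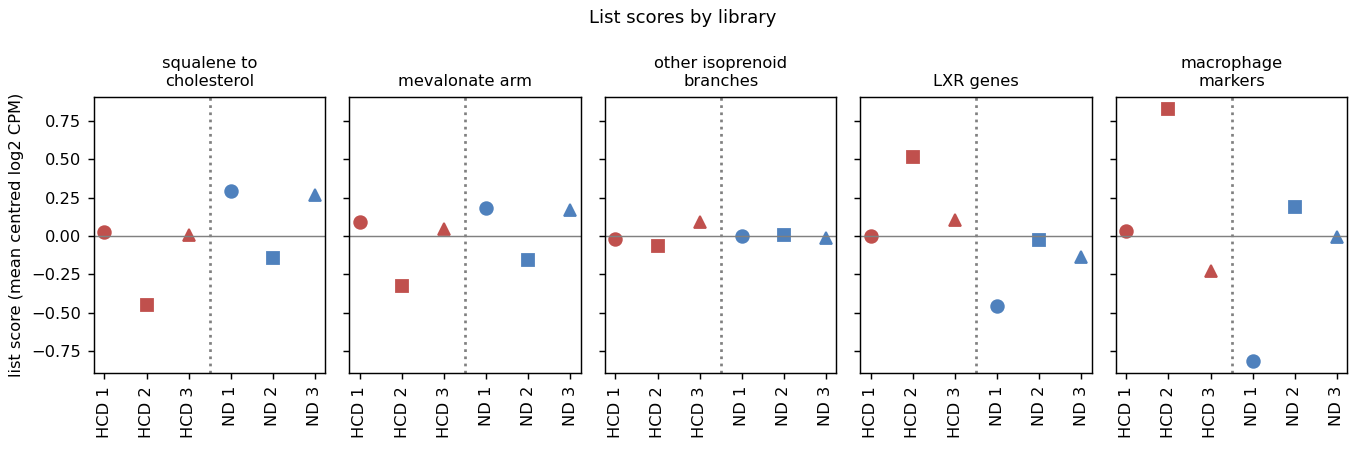
Mean centred log2 CPM (y axis) of 5 gene lists in each library (x axis, HCD then ND). HCD 2 is lowest for the 9 sterol genes (-0.45) and the mevalonate arm (-0.32) and highest for LXR genes (0.52) and macrophage markers (0.82), and the other isoprenoid branches stay between -0.07 and 0.09.

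The named genes whose pattern over the 6 libraries was nearest to the mean of the 9 were, among 10800 genes with at least 1 FPKM, Cdh2, Susd1, Stard4, Rassf9 and Dusp5. The measure was the root mean square difference of centred log2 CPM, which was 0.04 for Cdh2, the N-cadherin gene, 0.05 for Susd1 and 0.06 for Stard4, which encodes a cytosolic sterol carrier and known SREBP target. It was 0.06 for Rassf9 and 0.07 for Dusp5, a phosphatase of ERK, and the median over all tested genes was 0.30. Within the set the difference was smallest for Sqle, at 0.05, and largest for Tm7sf2, at 0.16, though each of the 9 helps to form the mean it is compared with.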

How the data were processed

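Per the file headers, the authors deposited raw counts and FPKM values per gene for 6 samples. Per the submitters' processing notes, the genome build was mm10 and the tools included TopHat2 2.0.9, HTSeq, CASAVA 1.8 and edgeR, whose roles are not stated. The annotation, the strand setting and the handling of shared reads are not given in the sources used here. Groups and numbers come from the titles, which do not state how tumours were separated, so p-values reflect the spread among these samples, which may be technical.

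CPM were computed from counts with TMM factors. All genes passing filterByExpr (minimum count 10, minimum total 15) entered the quasi-likelihood test of edgeR 4.0.16 in R 4.3.3 (legacy form, diet as the only term), with Benjamini-Hochberg adjustment over all tested genes and a threshold of 0.05. All 9 members passed this filter. Standard errors derive from the fold change and F statistic, and intervals are 95%. The fit was also run on simulated data with changes of 2-fold and 4-fold. Those are larger than the fold changes of the 9 genes, so the simulation does not cover differences of their size. Positions, exon overlaps and lengths came from GENCODE vM21, promoters from RefSeq. Counting errors are 100 divided by the square root of a count and cover counting only.

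Members, lists and tests were chosen with earlier results of these data known. Besides the members, a pathway list names at most its gene with the smallest p and the one with the highest FPKM, and 5 genes nearest in pattern, passing over predicted genes. Lbr, Srebf2, Mbtps1 and Fntb were named outside that rule. Alternatives were DESeq2 1.42.0 size factors and Wald test, upper quartile factors, other filters, adjusted deviances, limma 3.58.1 (voom, and log2(FPKM + 1) or log2(FPKM + 0.1), keeping genes over 1 FPKM in 3 or more libraries), a replicate block and each library left out. Gene lengths and the fits without 2 libraries were added after seeing the data.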

Additional observations from a re-analysis of the deposited data

How the results depend on the processing

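Over the planned fits and both fits without 2 libraries, the fold change of each of the 9 genes kept its sign, and none was called. The median over the 9 was -0.23 with DESeq2 or upper quartile factors, -0.24 with limma-voom, -0.22 on log2(FPKM + 1) and -0.07 to -0.37 with 1 library left out. By the Wald test of DESeq2, 1 gene was called higher and 6 lower, and the count of lower calls ran from 0 to 2 with 1 library left out, the 2 being found without ND 2; the causes were not tested. The replicate block gave a median of -0.24 and 0 calls. The labels do not say that a number marks a shared batch, and deviations of same-numbered tumours correlated at -0.34, 0.16 and 0.08 over tested genes for numbers 1, 2 and 3, so the numbers were not taken as pairs. With 3 tumours a diet the intervals of the 9 genes were wide, and for Tm7sf2 counting error adds to this.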

Other observations

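Fatty acid synthesis, a neighbouring lipid pathway, had 4 of 7 fold changes below 0 with a median of -0.02. HCD 2 had its lowest mean centred log2 CPM, at -0.145, where the other 5 libraries ran from -0.03 to 0.09, and it was the lowest library in 3 of 7 genes. The difference from the sterol enzymes was not tested. The log2 fold change of Acly, which makes cytosolic acetyl-CoA, was -0.17 ± 0.09 SE, and Scd2, the desaturase with the highest level of that list, had 1718, 1767 and 2100 CPM in HCD 1 to 3 and 2172, 1922 and 2080 CPM in ND 1 to 3, with overlapping diets. Enzymes that oxidise or esterify cholesterol had 5 of 6 above 0 with a median of 0.26. Cyp27a1, a mitochondrial sterol hydroxylase, had 35.6, 37.0 and 39.0 CPM in HCD 1 to 3 and 26.2, 31.2 and 32.9 CPM in ND 1 to 3, so that all HCD tumours lay above all ND tumours. The share of all tested genes in that order was not counted. Cyp27a1 was named for the smallest p of its list, and its log2 fold change was 0.31 ± 0.11 SE (edgeR, unadjusted p = 0.0244, adjusted p = 0.839). Cell cycle genes had 8 of 8 above 0 with a median of 0.09 and sums of 2173 to 2406 CPM in HCD and 1950.0 to 2369 CPM in ND tumours. No gene of these 3 lists passed over all genes.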
